A study of Homo sapiens with 12 samples.

Results

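The activating transcription factor gene ATF4 and 9 genes of the integrated stress response were followed in MOLM-13 and THP-1 cells after exposure to Jiyuan oridonin A (JOA), an ent-kaurene diterpenoid. The 10 genes are ATF4, DDIT3, TRIB3, ASNS, CHAC1, SESN2, PSAT1, PHGDH, DDIT4 and VLDLR, and they were taken by gene symbol from the expression table, which has 20030 gene rows, of which 16542 were above 0 in at least 1 library. Each symbol had 1 row, and all 10 genes passed the filter on low values (a mean of at least 0.1 FPKM over the libraries compared) in both lines. The values are FPKM, the fragments per kilobase of gene after scaling to library size, so that levels of different genes can be set side by side per length.

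mRNA was sequenced in 12 libraries, 3 in each of 4 groups. MOLM-13 and THP-1 are established human acute myeloid leukemia cell lines that both carry a rearrangement of the MLL gene, MOLM-13 with an internal tandem duplication of FLT3 and THP-1 with wild-type FLT3. Control cells received DMSO, and JOA was given at 0.5 μM to MOLM-13 cells and at 2 μM to THP-1 cells, each for 48 h by the labels. A figure legend of the study gives a longer exposure for the expression data than its methods and the labels do. Because the dose differs with the line, line and dose cannot be told apart in any difference between the lines. The labels do not say whether the replicates came from separate cultures, so a p-value measures the spread between these libraries, which may be technical. In RNA from whole cultures, fewer cells that transcribe a gene and less RNA per cell cannot be told apart.

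The integrated stress response is a pathway in which kinases that sense amino acid shortage, unfolded protein in the endoplasmic reticulum, heme shortage or double-stranded RNA phosphorylate the translation factor eIF2. General translation falls, while the mRNA of ATF4 is translated more, so that the level of ATF4 mRNA by itself does not measure ATF4 activity. ATF4 then switches on genes for amino acid synthesis and import, tRNA charging and stress signalling, among them DDIT3, which encodes the transcription factor CHOP, and TRIB3, a pseudokinase that restrains ATF4 and CHOP. Leukemia cells in culture draw on this pathway when amino acids such as asparagine or serine run short.

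ATF4 pairs with C/EBP proteins on a composite DNA element, searched here as TGATGNAA on both strands of the RefSeq promoters (GRCh38.p14, 250 bases before to 50 bases after each start). The element was found in the promoters of 2 of the 10 genes, ASNS and CHAC1, against 4.46% of 27305 genes and 3.62% of 35116 promoters overall. The palindromic CRE, TGACGTCA, was found in 0 of the 10 genes, against 2.25% of genes. The following stretches, written 5′ to 3′ on the strand of the gene, show both matches in capitals, and for comparison the 80 bases before the start of DDIT3 and of TRIB3, the genes with the lowest adjusted p among the 10 in THP-1 cells, in which neither element was found. The ASNS stretch is at chr7:97872426-97872519 on the minus strand, with the element beginning 68 bases before the start. The CHAC1 stretch is at chr15:40953221-40953312 on the plus strand, with the element on the opposite strand, beginning 209 bases before the start. DDIT3 is at chr12:57520515-57520594 on the minus strand and TRIB3 at chr20:381215-381294 on the plus strand. ASNS and DDIT3 each have 2 promoters in the set searched, TRIB3 has 3 and CHAC1 has 1, and each stretch comes from 1 of them. The ASNS and TRIB3 stretches lie inside the annotated genes, at chr7:97851677-97928441 and chr20:380760-397559. The start meant for these genes is thus not their outermost.
ASNS: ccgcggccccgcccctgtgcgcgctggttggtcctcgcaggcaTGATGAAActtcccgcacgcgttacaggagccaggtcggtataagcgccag
CHAC1: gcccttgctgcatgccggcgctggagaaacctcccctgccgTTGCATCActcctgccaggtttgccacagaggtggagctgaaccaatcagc
DDIT3: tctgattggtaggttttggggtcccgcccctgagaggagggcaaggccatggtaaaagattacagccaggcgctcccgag
TRIB3: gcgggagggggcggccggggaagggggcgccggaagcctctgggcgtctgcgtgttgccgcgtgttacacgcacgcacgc
The window is short and a missing match says only that these letters are not in it. Among lists of related genes, the element was found in 7 of 11 matched promoters of tRNA synthetases and a tRNA exporter counted as ATF4 targets and in 5 of 9 of amino acid transporters. It was in 3 of 7 for other enzymes of amino acid and serine metabolism, in 4 of 15 for stress factors downstream of ATF4 and CHOP, in 0 of 6 for the other tRNA synthetases and in 0 of 16 for chaperone genes induced by ATF6 and XBP1.

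The libraries of a line resembled each other closely, with correlations of log2 values across genes of 0.990 to 0.995 among MOLM-13 libraries and 0.987 to 0.993 among THP-1 libraries. Total depth is unknown in a table of FPKM. The most common ratio among values under 0.1 FPKM put the relative depth of the MOLM-13 libraries between 0.894 and 1 and that of the THP-1 libraries between 0.932 and 1.07, relative to control replicate 1 of each line. Of 13 myeloid marker genes, 11 were at a mean of at least 1 FPKM in both MOLM-13 groups and 12 in both THP-1 groups, while CD3E, MS4A1, HBB, EPCAM, COL1A2 and ALB, which define T cells, B cells, red cells, epithelium, fibroblasts and liver cells, were under 0.1 FPKM in every group. Other markers in the same list of 14 were not. In MOLM-13 control cells the T cell gene CD3D was at a mean of 2.83 FPKM and the keratin genes KRT8 and KRT18 at 1.62 and 7.72 FPKM, and the endothelial gene PECAM1, also found on myeloid cells, was at 15.4 FPKM. In THP-1 control cells PECAM1 was at 24.1 FPKM, KRT8 at 1.85 FPKM, KRT18 at 1.53 FPKM and the B cell gene CD79A at 0.760 FPKM. KRT18 was uneven there, at 2.35, 2.15 and 0.101 FPKM in replicates 1, 2 and 3. The sum of the 14 genes ranged from 26.7 to 28.7 FPKM in MOLM-13 control libraries, 26.3 to 29.9 with JOA, 27.6 to 30.5 in THP-1 control libraries and 31.7 to 35.5 with JOA. In THP-1 cells most of this sum was PECAM1, whose mean was 30.8 FPKM with JOA. The means of KRT8, KRT18 and CD79A were lower with JOA there, at 0.870, 0.447 and 0.476 FPKM. The part of these markers in the results was not tested.

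For these genes the libraries of MOLM-13 cells stood apart by replicate number and not by treatment. In both the control and the JOA group, all 10 genes were highest in replicate 2, intermediate in replicate 3 and lowest in replicate 1, an order that 5.16% of all genes tested in MOLM-13 cells had in both groups. In THP-1 cells 0 of the 10 genes had it, against 2.34% of all genes. It was read from MOLM-13 cells, and the labels link no numbers across lines. The count thus leaves out any other order in THP-1 cells. In THP-1 control cells ATF4, TRIB3, ASNS, CHAC1, PSAT1 and PHGDH fell from replicate 1 through 2 to 3, and DDIT3, SESN2, DDIT4 and VLDLR did not. With JOA, ATF4, CHAC1 and PHGDH kept that fall. The labels give the replicate number but not what the libraries of a number share, and the part of culture, extraction or sequencing in these orders was not tested.

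**Figure D1:**
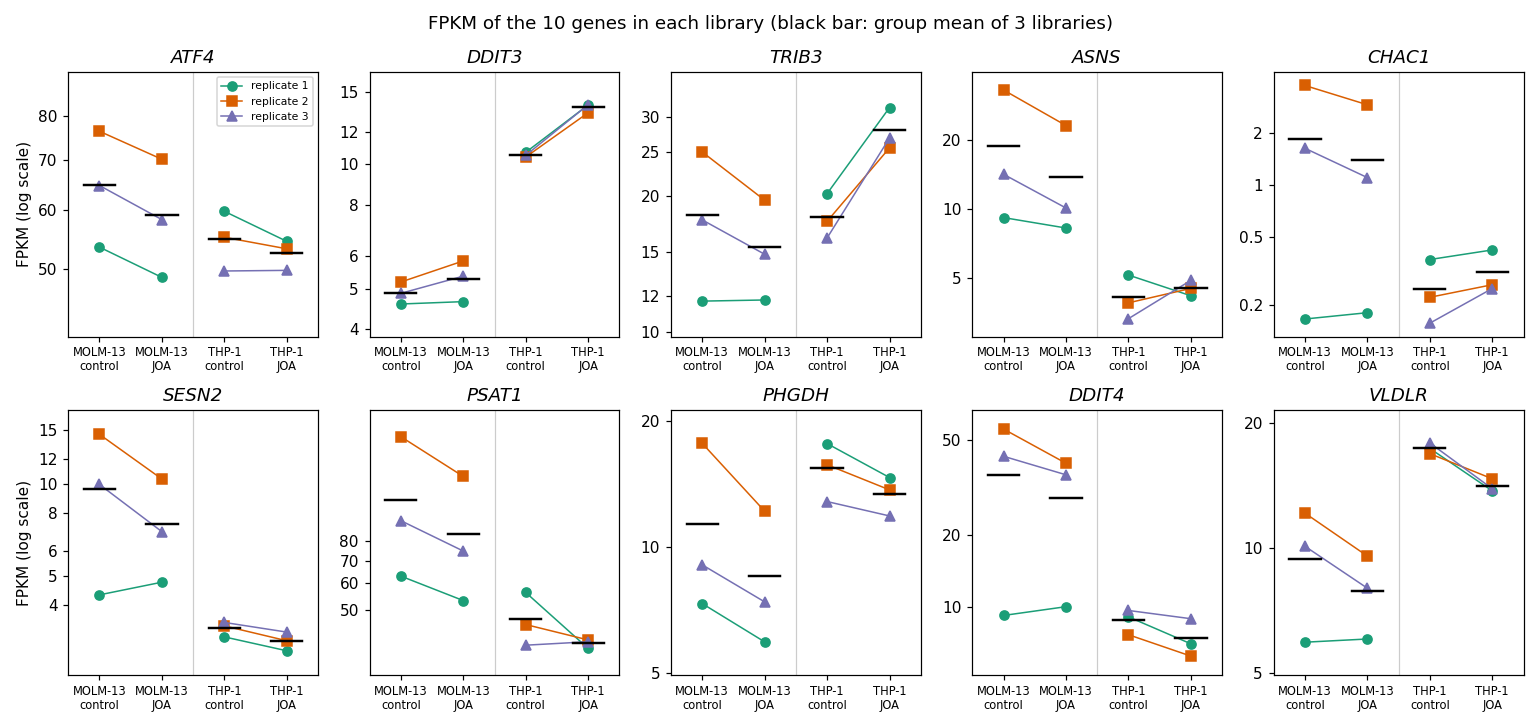
FPKM on a log scale for each of the 10 genes in the 12 libraries, with the same replicate number joined by a line between control and JOA and the mean of 3 libraries as a black bar. In MOLM-13 cells replicate 2 lies above replicate 3 and replicate 1 lies lowest in both groups for every gene, whereas in THP-1 cells the libraries of a group lie closer together and TRIB3 and DDIT3 are higher with JOA in each of the 3 libraries.

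ATF4, the transcription factor of the pathway, was at 53.5, 76.4 and 64.7 FPKM in MOLM-13 control replicates 1, 2 and 3 and at 48.8, 70.1 and 58.2 FPKM with JOA. The replicates of a group thus differed by up to 1.43-fold in control cells and 1.44-fold in JOA cells, while JOA and control of the same number differed by -0.12 to -0.15 on the log2 scale. DDIT3 was the steadiest of the 10 genes in this line, at 4.60, 5.20 and 4.88 FPKM in control cells and 4.66, 5.85 and 5.37 FPKM with JOA. TRIB3 ranged more widely, from 11.7 FPKM in control replicate 1 through 17.7 in replicate 3 to 25.1 in replicate 2. With JOA it was at 11.8, 19.6 and 14.9 FPKM in replicates 1, 2 and 3, so that replicate 1 alone was level between the groups.

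The genes of amino acid supply were spread over 2-fold to 4-fold. ASNS, which makes asparagine, was at 9.13, 32.9 and 14.1 FPKM in MOLM-13 control replicates 1, 2 and 3 and at 8.23, 23.0 and 10.1 FPKM with JOA. PSAT1, a transaminase of serine synthesis and the most abundant of the 10 genes in this line, was at 63.0, 164 and 92.2 FPKM in control cells and 53.3, 125 and 74.9 FPKM with JOA. PHGDH, which commits glycolytic carbon to serine, was at 7.33, 17.7 and 9.06 FPKM in control cells and 5.93, 12.2 and 7.39 FPKM with JOA. For these 3 genes each JOA library was lower than the control library of its number, but the control and JOA values overlapped because the numbers were further apart than the treatments.

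CHAC1, an enzyme that breaks down glutathione, varied most. It stood at 0.166 FPKM in MOLM-13 control replicate 1, 3.78 in replicate 2 and 1.63 in replicate 3, a 22.8-fold gap between replicates 2 and 1. With JOA the values were 0.181, 2.92 and 1.10 FPKM, a 16.2-fold gap. SESN2 and DDIT4, both restraints on the growth kinase mTORC1, followed the same order. SESN2 was at 4.33, 14.5 and 9.93 FPKM in control cells and 4.76, 10.3 and 6.96 FPKM with JOA. DDIT4 was at 9.24, 55.6 and 42.8 FPKM in control cells and 10.1, 40.0 and 35.8 FPKM with JOA, so that in replicates 2 and 3 it was several-fold above replicate 1. VLDLR, a lipoprotein receptor, was at 5.94, 12.2 and 10.1 FPKM in control cells and 6.04, 9.58 and 8.01 FPKM with JOA.

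The spread within groups placed most of the 10 genes near the top of the transcriptome in MOLM-13 cells. The SD of log2(FPKM + 0.1) pooled over the control and JOA groups was 1.86 for CHAC1, 1.25 for DDIT4 and 0.86 for ASNS, against a median of 0.12 over 11693 genes. CHAC1 had the 6th largest SD of these genes, DDIT4 the 32nd and ASNS the 91st. In all, 8 of the 10 genes exceeded 95% of genes, ATF4 itself exceeded 86.4%, and DDIT3 was close to the middle at 56.0%. In THP-1 cells 0 of the 10 genes exceeded 95%, and DDIT3, with an SD of 0.03, had a smaller spread than all but 2.08% of the genes.

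Other genes of the response shared the shift between MOLM-13 replicates. The median difference of replicate 2 from replicate 1 was 1.32 in control and 1.06 in JOA cells for the 10 genes on the log2(FPKM + 0.1) scale, against -0.01 in both groups for all genes tested. It was 0.69 and 0.58 for 10 amino acid transporters, all of which were higher in replicate 2 in both groups. SLC7A11, the cystine importer, was at 0.956, 5.37 and 3.49 FPKM in control replicates 1, 2 and 3. It was 0.46 and 0.32 for the 14 tRNA synthetase and exporter genes counted as ATF4 targets, but 0.01 and 0.05 for the 7 other synthetases. The enzymes of amino acid and serine metabolism had medians of 0.43 and 0.39 over 12 genes. ALDH1L2, a mitochondrial folate enzyme, was at 4.79, 13.2 and 7.04 FPKM in control cells. The stress factors downstream of ATF4 and CHOP had medians of 0.62 and 0.23 over 16 genes.

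Lists outside the pathway moved with the replicate number too. The 16 chaperone and quality control genes induced by ATF6 and XBP1 went the other way, with medians of -0.55 in control and -0.39 in JOA cells. HSPA5, the main chaperone of the endoplasmic reticulum, was at 188, 118 and 119 FPKM in control replicates 1, 2 and 3 and at 182, 151 and 129 FPKM with JOA. The 11 hypoxia targets were higher in replicate 2 by medians of 0.54 and 0.41, and in replicate 3 by 0.60 and 0.46. The 15 p53 targets differed by 0.01 and -0.07, and the 15 genes of eIF2 and its kinases by -0.08 and 0.02. In THP-1 cells the difference of replicate 2 from replicate 1 was smaller for the 10 genes, at -0.19 in control and -0.05 in JOA cells. For the 7 other tRNA synthetases it was larger in size than in MOLM-13 cells, at -0.10 and -0.07. Replicate 3 of THP-1 cells differed from replicate 1 by medians of -0.38 in control and -0.12 in JOA cells for the 12 enzymes of amino acid and serine metabolism. For the 10 genes these medians were -0.29 and 0.01, against -0.02 and 0.002 for all genes tested.

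**Figure D2:**
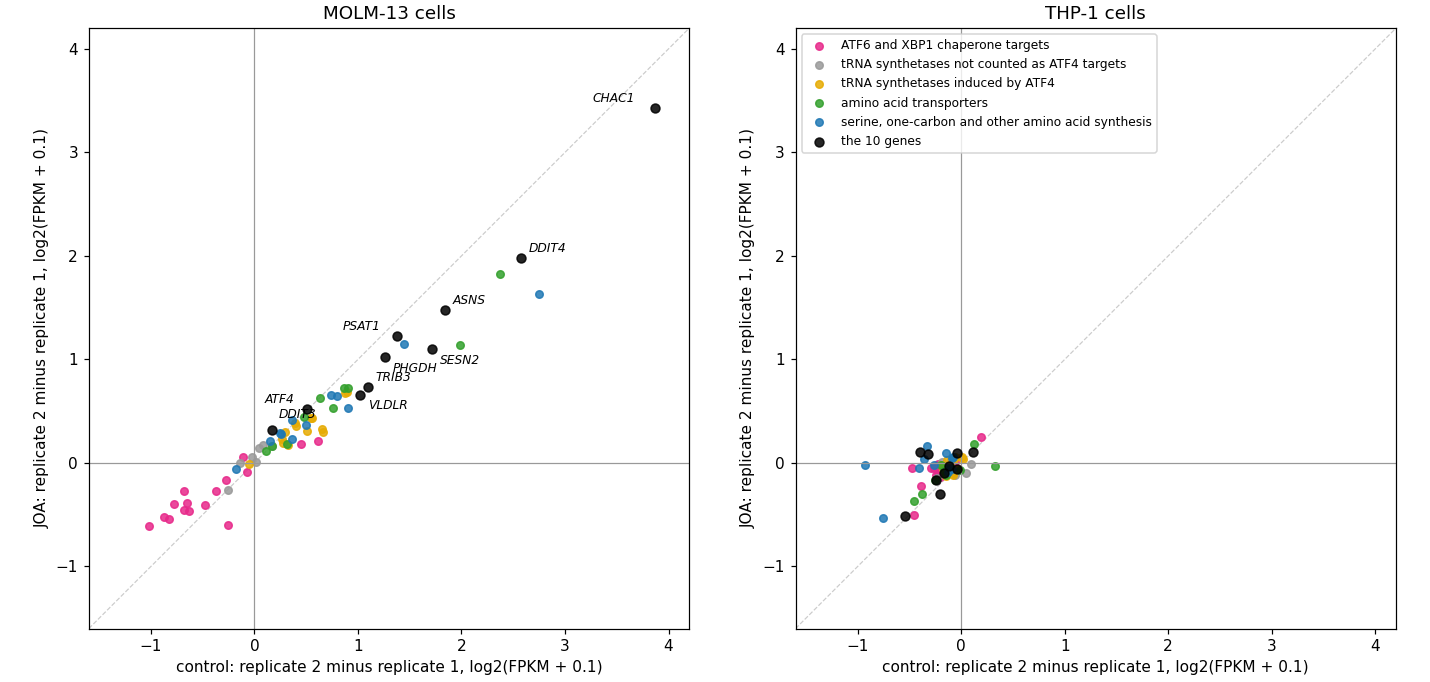
Difference between replicate 2 and replicate 1 in log2(FPKM + 0.1), for control libraries on the horizontal axis and JOA libraries on the vertical axis, with 1 point per gene coloured by gene list and the line of equal values dashed. In MOLM-13 cells the 10 genes lie at 0.17 to 3.87 in control and 0.32 to 3.43 in JOA cells and most chaperone genes lie below 0, whereas in THP-1 cells the points gather near 0.

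JOA was then compared with control in MOLM-13 cells. By limma with Benjamini-Hochberg adjustment, 0 of the 10 genes passed an adjusted p under 0.05 with a log2 fold change of 0.58 or more in either direction, which 0 of 11693 genes (0%) did. At an unadjusted p under 0.05 there were 0 of the 10 genes, against 4.11% of all genes. The log2 fold changes, all on the log2(FPKM + 0.1) scale, were negative for 9 of the 10 genes, from -0.38 (SE 0.49) for ASNS and -0.37 (SE 0.34) for PHGDH to -0.14 (SE 0.16) for ATF4, and 0.11 (SE 0.10) for DDIT3. Their median was -0.24, and that of all genes was 0.01. The values of control and JOA overlapped for each of the 10 genes, while 5.1% of all genes were higher and 4.55% lower in every JOA library than in every control library. An exact 2-sided permutation test of 3 against 3 libraries cannot give a p below 0.1.

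With the replicate number as a block, which removes the shift between replicates, the standard errors of the 10 genes in MOLM-13 cells shrank to between 0.04 for ATF4 and 0.14 for CHAC1. Still 0 of the 10 genes and 0% of all genes passed both thresholds, with adjusted p from 0.223 for PSAT1 to 0.577 for DDIT3. An unadjusted limma p under 0.05 was reached by 6 of the 10 genes, against 11.1% of all genes. These were ATF4 (0.0102), TRIB3 (0.0264), ASNS (0.00135), PSAT1 (0.000204), PHGDH (0.000591) and VLDLR (0.0312), with SESN2 at 0.0504, and they do not survive adjustment over all genes. Within numbers, JOA was lower than control in 3 of 3 comparisons for ATF4, ASNS, PSAT1 and PHGDH and higher in 3 of 3 for DDIT3, against 15.7% and 18.5% of all genes. For TRIB3, CHAC1, SESN2, DDIT4 and VLDLR, JOA was higher in replicate 1, by 0.01 to 0.13, and lower in replicates 2 and 3, by 0.25 to 0.53 on the log2 scale.

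Leaving out single libraries turned the sign for several genes in MOLM-13 cells in the fits without the block, in which a left-out library also shifts the balance of replicate numbers between the groups. Without control replicate 2 the log2 fold changes of TRIB3, ASNS, CHAC1, SESN2, PSAT1 and DDIT4 became positive, at 0.07, 0.13, 0.57, 0.09, 0.06 and 0.29. Without JOA replicate 1 that of CHAC1 was 0.65 and that of DDIT4 was 0.43, and without control replicate 3 that of DDIT4 was 0.10. For ATF4, PHGDH, VLDLR and DDIT3 the sign was kept when any library was left out. Leaving out both libraries of a number turned no sign of the 10 genes, and ASNS and PSAT1, lower within each number, stayed at -0.50 to -0.32 and -0.35 to -0.27.

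**Figure D3:**
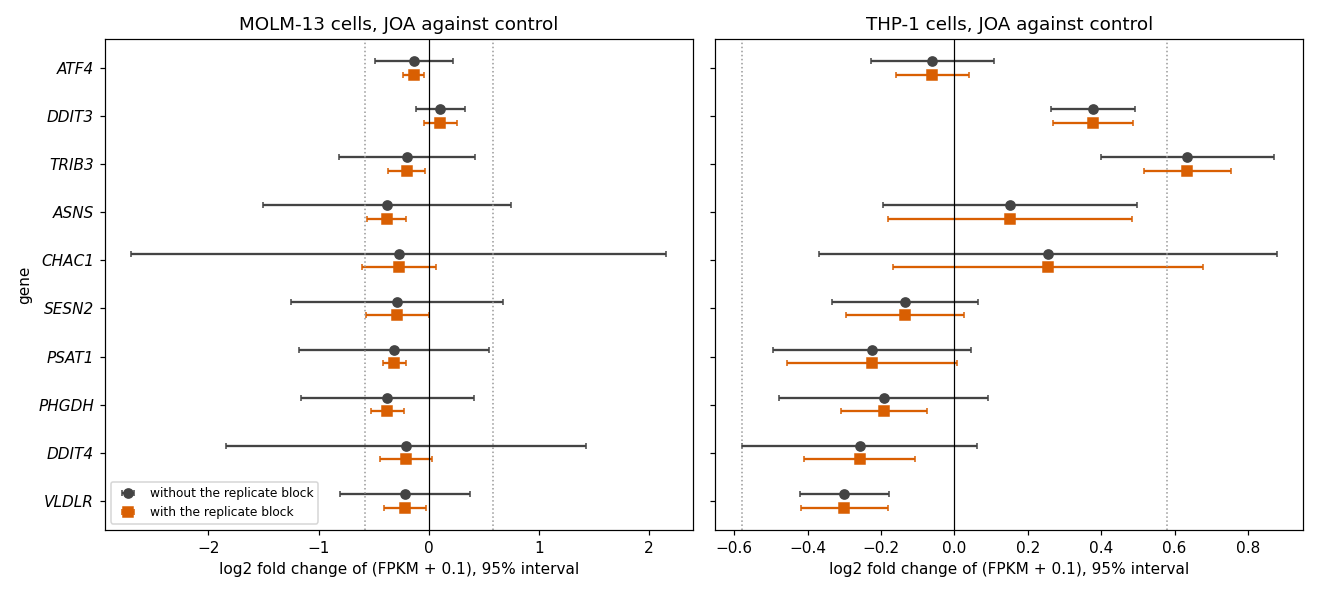
Log2 fold change of JOA against control for the 10 genes with its 95% interval, without the replicate block (circles) and with it (squares), and dotted lines at -0.58 and 0.58; the horizontal scales of the panels differ. In MOLM-13 cells the block narrows the intervals, for CHAC1 from -2.70 to 2.16 down to -0.60 to 0.06, and in THP-1 cells the intervals of DDIT3, TRIB3 and VLDLR exclude 0 in both fits.

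In THP-1 cells the CHOP gene and its target TRIB3 were higher with JOA and VLDLR was lower, while ATF4 and the amino acid genes overlapped between the groups. DDIT3 was at 10.7, 10.4 and 10.5 FPKM in control replicates 1, 2 and 3 and at 13.9, 13.3 and 13.9 FPKM with JOA, or 10.5 ± 0.139 against 13.7 ± 0.346 (mean ± SD, n = 3). Every JOA library was above every control library, and the fitted fold was 1.30. The log2 fold change was 0.38 (SE 0.05), with an adjusted limma p of 0.0394 without the block and 0.00857 with it, and it lies below the fold threshold. When any library was left out of the fit without the block, the adjusted p of DDIT3 rose to between 0.0754 and 0.438. With the block and both libraries of 1 number left out it was between 0.00688 and 0.0188.

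TRIB3 was at 20.3, 17.6 and 16.1 FPKM in THP-1 control replicates 1, 2 and 3 and at 31.4, 25.6 and 26.9 FPKM with JOA, or 18 ± 2.1 against 28 ± 3.1 (mean ± SD, n = 3). The groups did not overlap, and the log2 fold change of 0.64 (SE 0.10), a fold of 1.55, was the largest of the 10 genes in this line. Its adjusted limma p was 0.0543 without the block and 0.00534 with it, so that TRIB3 passed both thresholds with the block and not without it. Without the block it also passed when the genes tested were limited to a mean of at least 1 FPKM, with an adjusted p of 0.0412. Within numbers the differences were 0.63, 0.54 and 0.73. With the block and both libraries of 1 number left out, TRIB3 still passed, with log2 fold changes of 0.59 to 0.68 and adjusted p of 0.00156 to 0.00191.

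VLDLR was at 17.4, 16.9 and 17.9 FPKM in THP-1 control cells and at 13.8, 14.7 and 13.9 FPKM with JOA. The groups did not overlap and the log2 fold change was -0.30 (SE 0.05), with an adjusted limma p of 0.0698 without the block and 0.0203 with it, below the fold threshold in either case. An antisense gene, VLDLR-AS1, shares 738 exonic bases with VLDLR on the other strand, and the strand setting of the counting is not stated, so their reads may not be separated.

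The other 7 genes overlapped between control and JOA in THP-1 cells. ATF4 was at 59.8, 55.2 and 49.8 FPKM in control cells and 54.5, 53.3 and 49.9 FPKM with JOA, a log2 fold change of -0.06 with a 95% interval of -0.23 to 0.11. This interval lies inside the fold threshold. ASNS was at 5.13, 3.88 and 3.31 FPKM in control cells and 4.16, 4.48 and 4.86 FPKM with JOA, so that the libraries of replicate 1 and those of replicates 2 and 3 moved in opposite directions. PSAT1 was at 56.3, 45.2 and 39.2 FPKM in control cells and 38.3, 40.7 and 40.2 FPKM with JOA. The drop lay in replicates 1 and 2, by 0.55 and 0.15 on the log2 scale, and the adjusted p was 0.379 without the block and 0.205 with it. PHGDH was at 17.6, 15.7 and 12.8 FPKM in control cells and 14.6, 13.7 and 11.9 FPKM with JOA, lower in 3 of 3 numbers, with a log2 fold change of -0.19 and an adjusted limma p of 0.476, or 0.0582 with the block.

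CHAC1 was barely expressed in THP-1 cells, at 0.368, 0.222 and 0.157 FPKM in control cells and 0.419, 0.263 and 0.250 FPKM with JOA. It was higher in 3 of 3 numbers, by 0.15, 0.17 and 0.44 on the log2 scale. Its log2 fold change of 0.25 has a 95% interval of -0.37 to 0.88, and the pseudocount of 0.1 FPKM understates changes at this level. SESN2 was at 3.16, 3.43 and 3.52 FPKM in control cells and 2.84, 3.07 and 3.27 FPKM with JOA. DDIT4 was at 9.11, 7.67 and 9.69 FPKM in control cells and 7.03, 6.24 and 8.95 FPKM with JOA. The mTORC1 restraints SESN2 and DDIT4 were lower in 3 of 3 numbers, with log2 fold changes of -0.13 and -0.26, and neither passed an adjusted limma p of 0.05, which was 0.265 for SESN2 and 0.0538 for DDIT4 with the block.

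Against the background in THP-1 cells, 0 of the 10 genes passed both thresholds without the block, as did 0.134% of 12712 genes, and 1 of the 10, TRIB3, passed them with the block, as did 1.27%. At any fold, an adjusted p under 0.05 was reached by 1 of the 10 genes (DDIT3) without the block and by 3 with it, against 0.299% and 8.06% of all genes. At an unadjusted p under 0.05 there were 3 of the 10 genes without the block, DDIT3, TRIB3 and VLDLR, against 16.9% of all genes. With the block there were 5 of the 10, PHGDH and DDIT4 being added, against 26%. JOA values were higher than control values throughout for 2 of the 10 genes, against 14.6% of all genes, and lower throughout for 1, against 8.81%. Within numbers, JOA was lower in 3 of 3 comparisons for 4 of the 10 genes, against 19.4% of all genes, and higher in 3 of 3 for 3 of the 10, against 29.3%. The median log2 fold change of the 10 genes was -0.10, with 4 above and 6 below 0, and that of all genes was 0.02.

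The responses of the lines were compared by the interaction of line and treatment over all 12 libraries. Without the block 0 of the 10 genes and 0% of 12626 genes had an adjusted limma p under 0.05, and with the block 1 of the 10 genes and 0.0475% of all genes did. That gene was TRIB3, whose response in THP-1 cells exceeded that in MOLM-13 cells by 0.83 on the log2 scale, with an SE of 0.33 and an adjusted p of 0.626 without the block and an SE of 0.10 and an adjusted p of 0.0462 with it. The blocked call was kept without replicate 1 of MOLM-13 cells (adjusted p 0.0282) and lost without replicate 2 (0.104) or 3 (0.123) of MOLM-13 cells and without replicate 1 (0.157), 2 (0.102) or 3 (0.163) of THP-1 cells, while the difference stayed between 0.76 and 0.94. At an unadjusted p under 0.05, DDIT3 (0.27, SE 0.11) and TRIB3 were found without the block, against 7.24% of all genes, and ASNS (0.53) and CHAC1 (0.52) were added with it, against 14.9%. For ATF4 the difference was 0.08 with a 95% interval of -0.35 to 0.50.

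Control THP-1 and control MOLM-13 cells differed in 6 of the 10 genes, against 44% of 12635 genes at the same thresholds. DDIT3 was higher in THP-1 cells, at 10.5 ± 0.139 against 4.89 ± 0.299 FPKM (SD, n = 3), with a log2 fold change of 1.09 and an adjusted limma p of 3.37e-06. VLDLR was higher too, at 17.4 ± 0.517 against 9.40 ± 3.17 FPKM, by 0.94 with an adjusted p of 0.00532. ASNS was lower in THP-1 cells, at 4.10 ± 0.930 against 18.7 ± 12.5 FPKM, by -1.98 with an adjusted p of 0.00251. SESN2 (-1.32, adjusted p 0.0114) and PSAT1 (-1.08, adjusted p 0.0125) were also lower. DDIT4 was called lower (-1.66, adjusted p 0.0295) although 9.24 FPKM in MOLM-13 control replicate 1 lay within the THP-1 values of 7.67 to 9.69, and the call was lost, with adjusted p of 0.0598 to 0.0985, when any library other than MOLM-13 control replicate 1 was left out. CHAC1 was at 0.249 ± 0.108 against 1.86 ± 1.82 FPKM, with an adjusted p of 0.0788, and passed without MOLM-13 control replicate 1 (-2.94, adjusted p 0.000367). PHGDH differed by 0.53 with an adjusted p of 0.134 and passed without MOLM-13 control replicate 2 (0.90, adjusted p 0.00139). ATF4 (-0.23) and TRIB3 (0.05) did not pass.

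Ordered by mean level, PSAT1 (106 FPKM), ATF4 (64.9 FPKM) and DDIT4 (35.9 FPKM) led in MOLM-13 control cells, and DDIT3 (4.89 FPKM) and CHAC1 (1.86 FPKM) came last. Neighbours from PSAT1 down to VLDLR overlapped in their libraries there, while VLDLR and DDIT3, and DDIT3 and CHAC1, did not. In THP-1 control cells ATF4 (54.9 FPKM) and PSAT1 (46.9 FPKM) led and overlapped, and TRIB3, VLDLR and PHGDH followed at 18, 17.4 and 15.4 FPKM with overlapping neighbours. DDIT3 at 10.5 FPKM lay apart from PHGDH above and from DDIT4 (8.83 FPKM) below, and CHAC1 came last at 0.249 FPKM. With JOA, TRIB3 at 28.0 FPKM no longer overlapped with VLDLR at 14.1 FPKM, and VLDLR and DDIT3 (13.7 FPKM) overlapped.

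Some of these levels carry a limit from the annotation. ATF4, ASNS and PSAT1 each have 4 named pseudogenes in GENCODE 29, with which reads may be shared. DDIT3 overlaps MARS, itself counted among the ATF4 targets, by 355 exonic bases on the opposite strand. It also shares 105 exonic bases with AC022506.1 on the same strand and 58 with MBD6 on the opposite strand. MARS was at 66.2, 66.5 and 55.6 FPKM in THP-1 control cells and 64.1, 66.8 and 53.3 FPKM with JOA, with overlapping groups. DDIT4 shares 847 exonic bases with DDIT4-AS1 on the opposite strand, and ASNS shares 1985 with AC079781.5 on the same strand.

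The other lists of the pathway were described in the same way. In MOLM-13 cells 0 genes of these lists were called, with or without the block. The amino acid transporters had negative log2 fold changes in 10 of 10 tested genes (median -0.22), the enzymes of amino acid and serine metabolism in 12 of 12 (median -0.17) and the tRNA synthetase and exporter genes counted as ATF4 targets in 13 of 14 (median -0.11). SLC38A1, a glutamine transporter, was at 14.4, 16.2 and 15.5 FPKM in MOLM-13 control cells and 11.8, 13.2 and 13.5 FPKM with JOA, and had groups that did not overlap, with a log2 fold change of -0.26 and an adjusted limma p of 1.00, or 0.252 with the block. The other tRNA synthetases had a median of 0.01, and the stress factors a median of 0.00 over 16 genes. The 15 genes of eIF2 and its kinases had a median of -0.04.

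In THP-1 cells 0 genes of these lists were called at both thresholds in either fit, but with the block some passed an adjusted p under 0.05 at smaller folds. Of 17 stress factors tested, 3 did, each higher with JOA, against 8.06% of all genes. PPP1R15A, which encodes the phosphatase subunit GADD34 that reverses eIF2 phosphorylation, was at 5.57, 5.54 and 5.70 FPKM in control cells and 7.57, 7.75 and 7.04 FPKM with JOA. Its groups did not overlap, and the log2 fold change of 0.41 (SE 0.06) had an adjusted p of 0.0543, or 0.0151 with the block. CEBPB, a C/EBP partner of ATF4, differed by 0.29 (adjusted p 0.0354 with the block) and ERO1A, an oxidase of protein folding induced by CHOP, by 0.22 (0.0434 with the block). GDF15, a secreted stress cytokine, differed by 0.73 (SE 0.31), with an adjusted p of 0.283 and 0.174 with the block. The median of the list was 0.02, the same as that of all genes.

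Amino acid genes in THP-1 cells went in both directions, and the counts past an adjusted p of 0.05 with the block, 1 of 10 transporters, 1 of 12 enzymes and 1 of 15 eIF2 genes, were near the 8.06% of all genes that passed the same test. Of the 10 transporters tested, SLC3A2, the heavy chain of several amino acid exchangers, passed at an adjusted p of 0.0222 with the block. It was at 47.9, 42.7 and 42.0 FPKM in control cells and 55.5, 52.5 and 60.5 FPKM with JOA, a log2 fold change of 0.35 (SE 0.07). SLC43A1, a neutral amino acid transporter, differed by 0.29 with an adjusted p of 0.0653 with the block. Of the 12 enzymes, BCAT1, a branched-chain transaminase, passed with the block (adjusted p 0.0324), falling from 9.07, 7.05 and 5.21 FPKM to 5.03, 5.15 and 4.36 FPKM, a log2 fold change of -0.51. GPT2 (-0.36) and ALDH18A1 (-0.16), which make alanine and proline precursors, did not pass. Of the 14 ATF4-linked tRNA synthetase and exporter genes 0 passed, EPRS (-0.14), TARS (-0.09) and LARS (-0.06) having the lowest p, and of the 7 other synthetases 0 passed, with DARS at 0.18, FARSB at 0.14 and RARS at 0.13. Among the eIF2 genes IMPACT, an inhibitor of the amino acid sensor kinase GCN2, was lower by -0.22 (adjusted p 0.0407 with the block), while OMA1 (0.33) and EIF2B5 (-0.09) did not pass.

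Lists of other stress pathways were set beside these. In THP-1 cells the NRF2 targets were the list with most genes past the test: 13 of 16 passed an adjusted p under 0.05 at any fold with the block and 2, PGD and SRXN1, without it, each higher with JOA, against 8.06% and 0.299% of all genes. HMOX1, heme oxygenase, was at 1.18, 1.90 and 1.77 FPKM in control cells and 3.20, 3.23 and 5.64 FPKM with JOA, and its log2 fold change of 1.24 (SE 0.25) was called with the block (adjusted p 0.00941) and not without it (0.0805). OSGIN1, an oxidative stress growth inhibitor, differed by 1.14 (SE 0.20) and was likewise called with the block (0.00659) and not without it (0.0698). SLC7A11, which NRF2 and ATF4 both induce and which stands in both lists, was at 6.01, 4.61 and 6.55 FPKM in control cells and 6.46, 5.24 and 7.41 FPKM with JOA, a log2 fold change of 0.15 that did not pass. Of 16 ATF6 and XBP1 targets 2 passed at any fold with the block, DNAJC3 (0.25, adjusted p 0.0261) and DNAJB11 (0.18, adjusted p 0.0386), while SEL1L (0.18) and DNAJB9 (-0.01) did not. Of 11 hypoxia targets 2 did, P4HA1 (0.37) and PFKFB3 (0.34), with ANKRD37 at 0.11. Of 15 p53 targets 1 passed higher, BAX (0.25), and 1 lower, TP53I3 (-0.42), in the same test with the block, against 8.06% of all genes. Values of control and JOA did not overlap for 2 p53 targets that were higher with JOA and 4 that were lower. Of all genes, 14.6% were higher and 8.81% lower in this way.

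In MOLM-13 cells 0 genes of these lists were called. The p53 targets had positive log2 fold changes in 15 of 15 genes (median 0.13). Of these, 3 were higher in every JOA library than in every control library, against 5.1% of all genes. Among the 3 were CDKN1A, the cell cycle inhibitor p21, at 0.25, and SESN1 at 0.20, with adjusted limma p of 0.244 and 0.311 with the block. In THP-1 cells CDKN1A was lower in every JOA library than in every control library, against 8.81% of all genes. Its log2 fold change there was -0.18 (adjusted limma p 0.0516 with the block). The difference between the lines was -0.42, with an adjusted p of 0.194 without the block and 0.0659 with it. The NRF2 targets had a median of 0.13 and the chaperone list a median of 0.11, with DNAJB9 at 0.35.

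**Figure D4:**
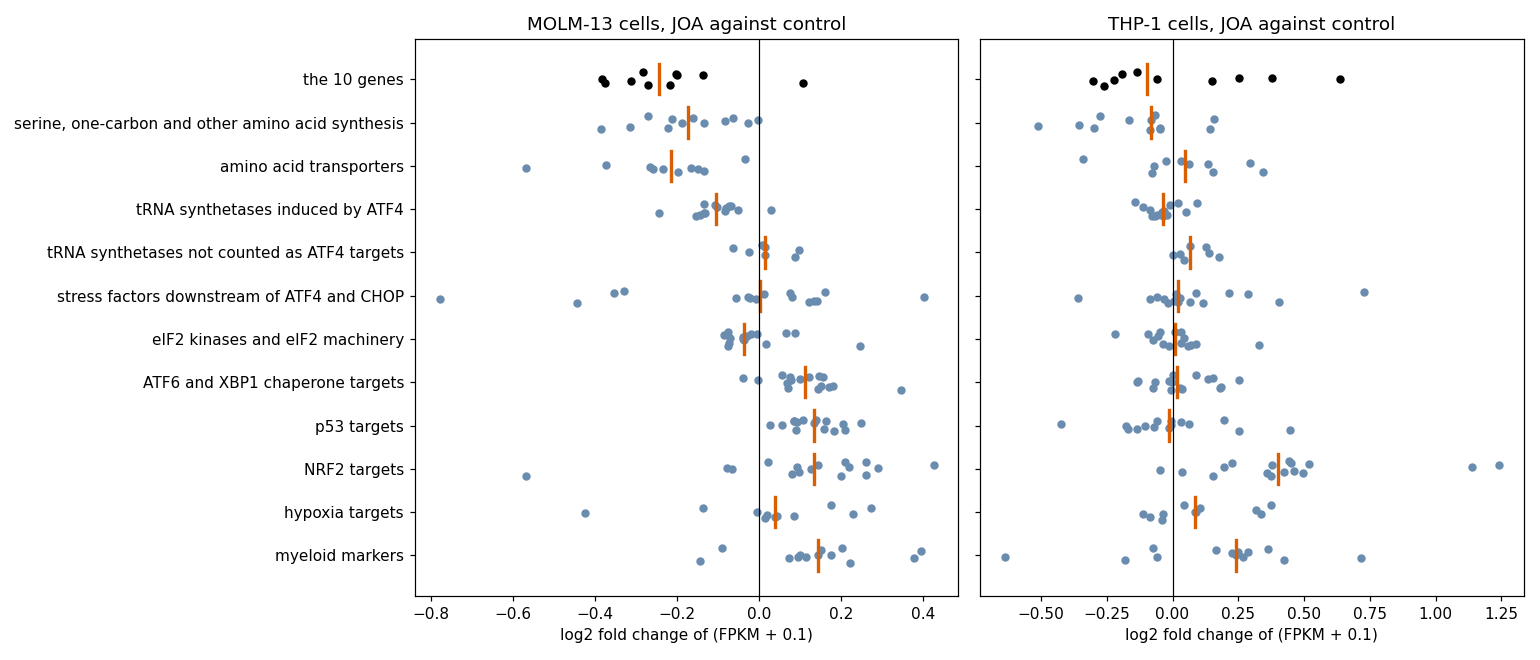
Log2 fold change of JOA against control for each tested gene of 12 lists, with 1 point per gene (shifted at random in height to separate points) and the median of each list as a bar; the horizontal scales of the panels differ. In MOLM-13 cells the 10 genes, the transporters and the enzymes of amino acid metabolism have medians of -0.24, -0.22 and -0.17, and in THP-1 cells the NRF2 targets have the largest median, at 0.40, while TRIB3 and DDIT3 are the highest of the 10 genes.

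The genes whose level followed ATF4 most closely were sought by the correlation of log2(FPKM + 0.1) over the 12 libraries, after the mean of each line was subtracted, among 9240 genes with a mean of at least 1 FPKM in both lines. They were ALDH1L2 (r = 0.974), MTHFD2 (0.973), CARS (0.969), PSAT1 (0.967) and SLC1A5 (0.960). MTHFD2 and ALDH1L2 are mitochondrial folate enzymes, CARS charges cysteine tRNA and SLC1A5 carries glutamine. Of the 10 genes, PHGDH (0.958) and ASNS (0.904) were also close to ATF4, TRIB3 less so (0.676), and DDIT3 least (0.227). CHAC1 was not ranked, since its mean was below 1 FPKM in THP-1 cells. The genes closest to TRIB3 were CGGBP1 (0.956), METTL4 (0.954), OGFRL1 (0.930), MKRN1 (0.923) and NEMP2 (0.918), and DDIT3 was at 0.784. The libraries share replicate numbers and differ in relative depth, and the MOLM-13 libraries span most of the range for ATF4. These correlations therefore describe the 12 libraries and carry no test.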

How the data were processed

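mRNA-seq of MOLM-13 and THP-1 cells gave 12 libraries, grouped by the labels. The authors deposited FPKM per gene, estimated from 150 bp paired reads of stranded libraries. The submitters' processing notes name Trimmomatic, HISAT2, HTSeq, Cufflinks and hg38. Versions and the strand setting are not given in the sources used here. Counts were not used here, so the authors' DESeq test was not rerun.

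FPKM values were used as deposited. Genes were kept from a mean of 0.1 FPKM upwards and log2(FPKM + 0.1) was tested with limma 3.58.1 in R 4.3.3 (lmFit, eBayes with a trend), within each line, for the interaction over 12 libraries, and between control groups. A gene was called at an adjusted p under 0.05 (Benjamini-Hochberg, over all genes) and, except for the interaction, a log2 fold change of 0.58 or more in size. The procedure was tested on simulated data. The 10 genes and the lists were chosen with earlier results of these data known. Named genes are the 10, from each other list those called in either fit or else the 3 with the lowest p, and the 5 most like ATF4 and TRIB3. Other genes, such as SLC7A11, ALDH1L2, HSPA5, MARS, GDF15, DNAJB11, TP53I3, PGD, SRXN1, CD68, CD3D, KRT8, KRT18, PECAM1 and CD79A, were named after their values were seen.

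The labels number the replicates in both groups. Deviations from group means correlated at 0.264 to 0.398 for MOLM-13 libraries and 0.139 to 0.319 for THP-1 libraries of the same number, and at most at 0.0168 and -0.0280 for others. Subtracting group means lowers the correlations of other numbers when those of the same number are positive, so this contrast is partly fixed in advance. Each fit was also made with the number as a block. Alternatives covered pseudocount, filter, scaling, trend, block, thresholds and left-out libraries. Relative depth was estimated from ratios of low values. No counting interval is given, since total depth is unknown. Sequences are from RefSeq (GRCh38.p14) and overlaps from GENCODE 29, on the build of the files.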

Additional observations from a re-analysis of the deposited data

Results flagged for a closer look

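The response of TRIB3 to JOA differed between the lines with the replicate block and not without it. Its log2 fold change was 0.64 in THP-1 cells (2 μM) and -0.20 in MOLM-13 cells (0.5 μM), a difference of 0.83 on the log2(FPKM + 0.1) scale. The interaction of line and treatment in limma had an adjusted p of 0.0462 with the replicate block and 0.626 without it. With the block, the call was lost in 5 of 6 fits that left out both libraries of a number in 1 line, with adjusted p of 0.102 to 0.163. TRIB3 was higher with JOA in 3 of 3 THP-1 replicates. In MOLM-13 cells replicate 1 was level, with a difference of 0.008, and replicates 2 and 3 were lower with JOA, by -0.35 and -0.25. Line and dose cannot be told apart here.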

How the results depend on the processing

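The pseudocount, filter, scaling, trend and one-fit alternatives, and the replicate block, reversed no log2 fold change of the 10 genes in these comparisons, and 0 of the 10 were called in MOLM-13 cells under every alternative run. In THP-1 cells the 10 genes held 1 call at a mean FPKM of at least 1, 1 with the replicate block, 1 at an adjusted p without the fold threshold and 1 at an unadjusted p with it. For the difference between the lines the block gave 1 call and an unadjusted p gave 2. The block changed no other call. Leaving out libraries gave 0 calls in both lines and for their difference in the fits without the block and 5 to 7 between the control groups. It reversed some signs. The range of log2 fold change in MOLM-13 cells was -0.48 to 0.066 for TRIB3, -0.83 to 0.13 for ASNS, -1.37 to 0.65 for CHAC1, -0.77 to 0.092 for SESN2, -0.64 to 0.056 for PSAT1, -0.999 to 0.43 for DDIT4. In THP-1 cells it was -0.13 to 0.0027 for ATF4 and -0.045 to 0.37 for ASNS. For the difference between the lines it was -0.054 to 0.21 for ATF4, -0.40 to 1.62 for CHAC1, -0.23 to 0.63 for SESN2, -0.28 to 0.42 for PSAT1, -0.19 to 0.47 for PHGDH, -0.69 to 0.74 for DDIT4, -0.30 to 0.21 for VLDLR, and between the control groups -0.23 to 0.31 for TRIB3. Leaving out both libraries of a number, with or without the block, was chosen after seeing the data. With the block and without MOLM-13 replicate 1, the difference for VLDLR was 0.036. The baseline call of DDIT4 was lost without the trend (adjusted p 0.0547) and with any value above 0 as filter (0.0607). The causes were not tested. Total depth is unknown, and changes in CHAC1 below 1 FPKM are the least certain.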

Other observations

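Markers of the myeloid lineage, of immature and mature cells, were read beside the stress genes. Of 13 myeloid markers, 6 were higher and 1 lower with JOA in THP-1 cells at an adjusted limma p under 0.05 at any fold with the replicate block, against 8.06% of all genes, and 0 passed without it. With the block and the fold threshold 1 was called higher and 1 lower, against 1.27% of all genes. The higher one was ITGAM, the integrin CD11b, with a log2 fold change of 0.71 and an adjusted p of 0.0348 with the block. The lower one was MPO, the myeloperoxidase of immature myeloid cells, with a log2 fold change of -0.64 and an adjusted p of 0.00659. The median over the list was 0.24 in THP-1 and 0.14 in MOLM-13 cells, where 0 passed in either fit and ITGAM differed by 0.39 and CD68, a macrophage protein, by 0.38. In replicate 2 of MOLM-13 cells, in which the 10 stress genes were highest, the median myeloid marker differed from replicate 1 by -0.09 in control and -0.31 in JOA cells. The relation between these markers and the stress genes was not tested.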
